A study of Mus musculus with 2 samples.

Results

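The genes described here encode 10 surface antigens whose amounts change as thymocytes mature: Ms4a4b, Ms4a4c, Ms4a6b, Ly6a, Ly6c1, Ly6d, Cd24a, Emb, Cd52 and Cd53. They were found by gene symbol, by accession through a reference gene table, or by a known older name, and make up 10 of the 27598 gene names on the array. They have 18 of its 41174 probes, and 15 of these were among the 21547 probes kept for testing because they were well above background on both arrays in at least one of the groups. All 10 genes kept a probe, out of 14929 genes that did.

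The study compared double-positive (DP) thymocytes, the CD4+ CD8+ cells of the thymic cortex, on 2 arrays, labelled as biological replicates 1 and 2. The tested samples came from Bcl11bF/FCD4Cre/Tcra-/- mice, which carry floxed Bcl11b, a Cre transgene named for CD4, and a deletion of Tcra; they are called deficient below. The control samples came from TCRa-/- mice, whose label names neither a floxed allele nor a Cre, so a Cre effect and the loss of Bcl11b cannot be told apart. Without a T cell receptor alpha chain, the DP cells of either genotype cannot be positively selected, and the series title calls them preselected. Each array held one deficient sample in Cy5 and one control sample in Cy3, with no array in the reverse orientation, so dye and genotype cannot be told apart. The labels give neither the number nor the age of the mice behind a sample, nor how DP cells were isolated. The p-values rest only on the spread between these 2 arrays, that of each probe being moderated by that of all tested probes. In such bulk samples, fewer cells of a type and less RNA per cell cannot be told apart.

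Thymocytes exchange one set of surface proteins for another as they pass from the double-negative to the DP and then to the CD4 or CD8 single-positive stage. Cd24a, the heat-stable antigen, is abundant on immature thymocytes and is lost late in maturation, while Ly6a (Sca-1), Ly6c1 and Ms4a4b are known from more mature or peripheral T cells. The antigens belong to several structural families: 4-pass membrane proteins of the MS4A group, small lipid-anchored proteins of the Ly6 group, the lipid-anchored glycoproteins CD24 and CD52, the immunoglobulin-fold protein embigin, and the tetraspanin CD53. Bcl11b is a zinc-finger transcription factor that T lineage cells need for commitment and for their later development in the thymus.

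Ms4a4b and Ms4a4c are neighbours on chromosome 19 with similar upstream sequence, and are shown because their ratios on the arrays were unlike. The Ms4a4c probe was dim, which limits that contrast. The 250 bases before each start site, from RefSeq on build GRCm38.p6, lie at chr19:11443308-11443557 and chr19:11407411-11407660, both on the plus strand, and are printed 5′ to 3′. Capitals mark the 6 runs of at least 12 bases that are identical in the alignment of the pair, the longest of 20 bases. In Ms4a4b the final run directly follows the one before it, because the alignment has a gap there opposite a base of Ms4a4c.
Ms4a4b: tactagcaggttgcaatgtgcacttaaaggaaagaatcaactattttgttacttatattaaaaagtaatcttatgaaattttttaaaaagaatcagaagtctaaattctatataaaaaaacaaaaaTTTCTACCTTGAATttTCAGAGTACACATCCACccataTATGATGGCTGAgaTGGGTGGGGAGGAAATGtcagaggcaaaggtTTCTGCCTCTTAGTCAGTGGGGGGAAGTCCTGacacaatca
Ms4a4c: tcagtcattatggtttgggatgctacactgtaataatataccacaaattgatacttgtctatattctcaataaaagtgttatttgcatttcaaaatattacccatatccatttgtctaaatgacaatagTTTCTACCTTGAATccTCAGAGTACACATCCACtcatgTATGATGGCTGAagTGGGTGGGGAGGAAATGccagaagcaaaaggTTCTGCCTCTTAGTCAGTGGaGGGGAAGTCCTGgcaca
The pair matched at 178 bases, or 71.2% of the window, whereas the other 14 pairs among the 6 member genes with an entry matched at 45.2% to 53.2%. All 6 runs lie nearer to the start site than to the far end of the window. The letters GGAAGT, a core of sites of the Ets factor family, occurred 1 time in each of the windows when both strands were searched, and 20.0% of 27025 promoters of the same length hold them. TGTGGT, the core of Runx sites, occurred in the Ms4a4c window and not in the Ms4a4b window, and is held by 14.2% of those promoters. These matches describe the letters only.

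The arrays had 45018 spots each, of which 43379 were not controls, and 50.5% to 56.5% of spots in a sample were well above background. Signals below are normalised intensities in scanner units, made from the authors' deposited mean signals by background correction (normexp, offset 50) and loess within each array. They are not comparable between probes, and the number of arrays limits the precision. A ratio is the log2 of the deficient over the control signal on 1 array, and a mean ratio is given with limma's moderated standard error (n = 2 arrays). The offset shrinks the ratios of dim probes. The 2 Bcl11b probes had mean ratios of -0.84 (-1.40 on replicate 1 and -0.28 on replicate 2) and -1.76 (-1.37 and -2.16), so the deficient samples were lower at both probes and the size varied between probes and arrays. All 14 genes of a list of DP thymocyte identity were well above background in both groups. Both control samples stood apart in the summed signals of genes of other blood cells. That of replicate 1 had a high neutrophil sum, and that of replicate 2 had low erythroid and macrophage sums. The greater part of each macrophage sum, given with Ly6c1 below, was Lyz2 alone. The median ratio of those 14 genes was 0.21 on replicate 1 and 0.32 on replicate 2. Seen on the authors' processed signals, which lack the offset, the 7 measured neutrophil genes summed to 7086 and 9564 in the deficient samples of replicates 1 and 2, against 38742 and 5543 in the controls. For 5 erythroid genes the sums were 71938 and 108231 in the deficient samples, against 127751 and 20316 in the controls. Signals of 9 NK cell genes summed to 10293 and 10465 in the deficient samples, against 4961 and 4693 in the controls. The sum was higher in both deficient samples, but of the 9 genes 6 were higher and 1 lower on both arrays, with a median ratio of 0.26. The sum of 9 stromal or endothelial genes was higher in the deficient sample within each array (7203 and 3987, against 4259 and 1180). Of these, 8 were higher and 1 lower on both arrays. The 7 B cell genes summed to 4027 and 2987 in the deficient samples, against 6282 and 3817 in the controls, and 8 dendritic cell genes to 44521 and 27343, against 63226 and 56370. The dendritic sums include Ccr9, also a gene of DP thymocytes, with 19098 and 9772 in the deficient samples, against 36321 and 43389 in the controls. Of those 8 genes, 4 were higher and 3 lower on both arrays. For 10 thymic epithelial genes the sums were 13937 and 5584 in the deficient samples, against 20884 and 4425 in the controls. The part of these transcripts in the ratios below was not tested, and the ratio of each array alone is printed for each gene, which is its value without the other array.

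Among the 10 genes, 5 had a higher signal in the deficient sample on both arrays (Ms4a4b, Ly6c1, Ly6d, Emb and Cd53) and 5 a lower one (Ms4a4c, Ms4a6b, Ly6a, Cd24a and Cd52). The like shares of all 14929 genes were 36.4% for higher and 38.5% for lower. None of the 10 passed limma's test at an adjusted p of 0.05 after Benjamini-Hochberg adjustment over 21547 probes, where 0 probes (0%) passed. At an unadjusted p under 0.05 there were 6 of the 10 genes, against 29.1% of all genes. Separate-channel limma, which treats the channels of an array as correlated samples, called 5 of the 10 (Emb, Cd53, Ly6d, Ms4a4b and Cd52), against 6.53% of all genes and 5.71% of all probes. The processed signals called 0 of the 10, and 0.139% of all probes. The negative-control background called Emb alone, and 3.28% of all probes. Median centring called Emb, Ms4a4b and Ly6d, and 4.56% of all probes. Cd52 was the only one of the 10 to differ at least 2-fold the same way on both arrays, and it was lower; it was below 2-fold on both arrays with median centring (-0.60 and -0.97), where Ly6d and Emb passed 2-fold on both, and just below it on replicate 1 with the negative-control background (-0.999), where Cd53 passed. With the reported processing, 0.275% of all genes were as much lower and 0.817% as much higher. The sample signals of the groups did not overlap for 9 of the 10 genes, in 5 of them with the deficient samples higher and in 4 lower; the same held for 56.6% of all genes (27.2% higher and 29.4% lower). Because no member passed the main test, "higher" and "lower" below give the order of the measured signals.

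**Figure D1:**
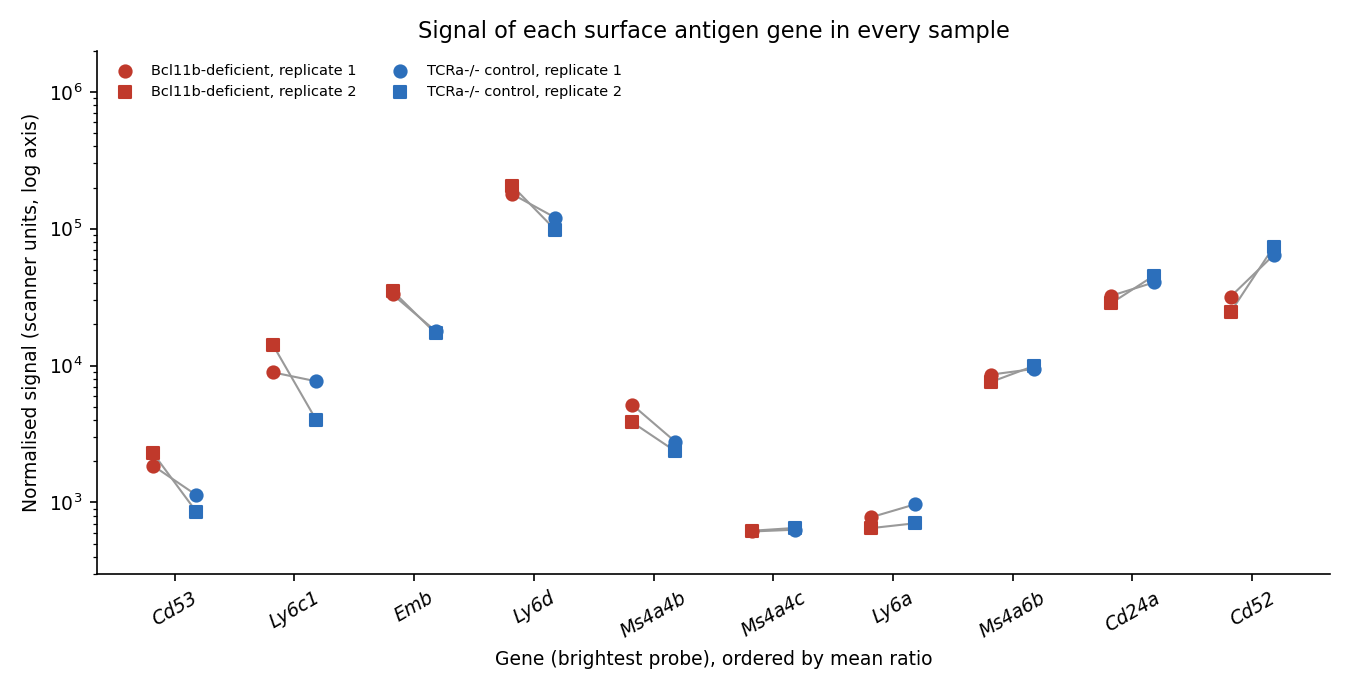
Normalised signal (scanner units, log axis) of the brightest kept probe of each of the 10 genes, with deficient samples left of controls and 1 point per sample. The groups' points overlap for Ly6a alone, and Cd52 and Emb show the groups well apart.

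The MS4A genes did not share one direction, though the Ms4a4c probe was dim. Ms4a4b, a 4-pass membrane protein known as a modulator of T cell signalling, was higher in the deficient samples, while Ms4a4c and Ms4a6b were close to the controls or below them. The brightest Ms4a4b probe, at chr19:11530184-11530243 (mm8, the build printed in the array files), gave 5177 and 3855 in the deficient samples of replicates 1 and 2, against 2779 and 2369 in the controls. Both deficient samples were above both controls. The ratios were 0.90 and 0.70, with a mean of 0.80 ± 0.09 and an adjusted p of 0.0923 by limma.

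The other kept Ms4a4b probes, from other stretches of the gene, were also higher in the deficient samples. A probe within chr19:11524876-11526235 had signals of 3655 and 2703 in the deficient samples, against 1942 and 1750 in the controls, with a mean ratio of 0.77 ± 0.10. A probe within chr19:11521807-11524890 had 3227 and 2384 in the deficient samples, against 1822 and 1528 in the controls, with a mean ratio of 0.73 ± 0.09. These 2 positions span 1360 and 3084 bases, far more than the 60 of most member probes, as for a probe whose sequence crosses a splice junction. The probe at chr19:11517005-11517064 was not well above background in either control sample. Both deficient samples measured it. With each control set at its signal or, if higher, the lowest signal well above background, the deficient samples averaged 1.58-fold higher. Its signals were 936 and 796 in the deficient samples, against 560 and 494 in the controls. Its fitted mean ratio was 0.72 ± 0.07, with an adjusted p of 0.0923 by limma. The 3 probes well above background in all samples had mean ratios between 0.73 and 0.80, and between 0.85 and 0.92 on the processed signals, where the dim probe had 2.17. The remaining probe of the gene was not kept.

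Ms4a4c, the neighbour shown above, was measured by 1 kept probe, for which the files print no genome position; its other probe was not kept. It gave 612 and 620 in the deficient samples, against 631 and 650 in the controls. The probe was dim, since the lowest signals well above background were 460 to 533 across the samples. Its processed signals were 64 and 56 in the deficient samples, against 68 and 72 in the controls. A contrast with Ms4a4b is limited by this. The ratios of -0.04 and -0.07 had a mean of -0.06 ± 0.07 and an adjusted p of 0.631 by limma, so the difference was within its error. Without the offset it was -0.22 ± 0.14 on the processed signals and -0.23 ± 0.12 with the negative-control background, where adjusted p was 0.359 and 0.298 by limma. Ms4a6b, another MS4A gene expressed in T cells, gave 8589 and 7594 in the deficient samples, against 9455 and 9953 in the controls, at chr19:11596938-11596997. Its deficient samples were the lower ones on both arrays, with ratios of -0.14 and -0.39 and a mean of -0.26 ± 0.10 (adjusted p 0.203 by limma), and centring each array on its median instead of loess brought the mean to -0.00. The files also list an Ms4a6c transcript for this probe, so signal from that paralog cannot be told apart.

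Other MS4A genes were measured as well. Of 18 further family members listed, 6 were measured, with 3 higher and 3 lower on both arrays and a median mean ratio of -0.08, against -0.00 over all genes. The largest mean ratios of one sign were those of Ms4a1 and Tmem176b. Ms4a1, which encodes the B cell antigen CD20, had -0.93 and -0.12 on the arrays, with a mean of -0.52 ± 0.23. Tmem176b had -0.48 and -0.32, with a mean of -0.40 ± 0.08. None of the 6 passed limma's test, and separate-channel limma called 0 of them.

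**Figure D2:**
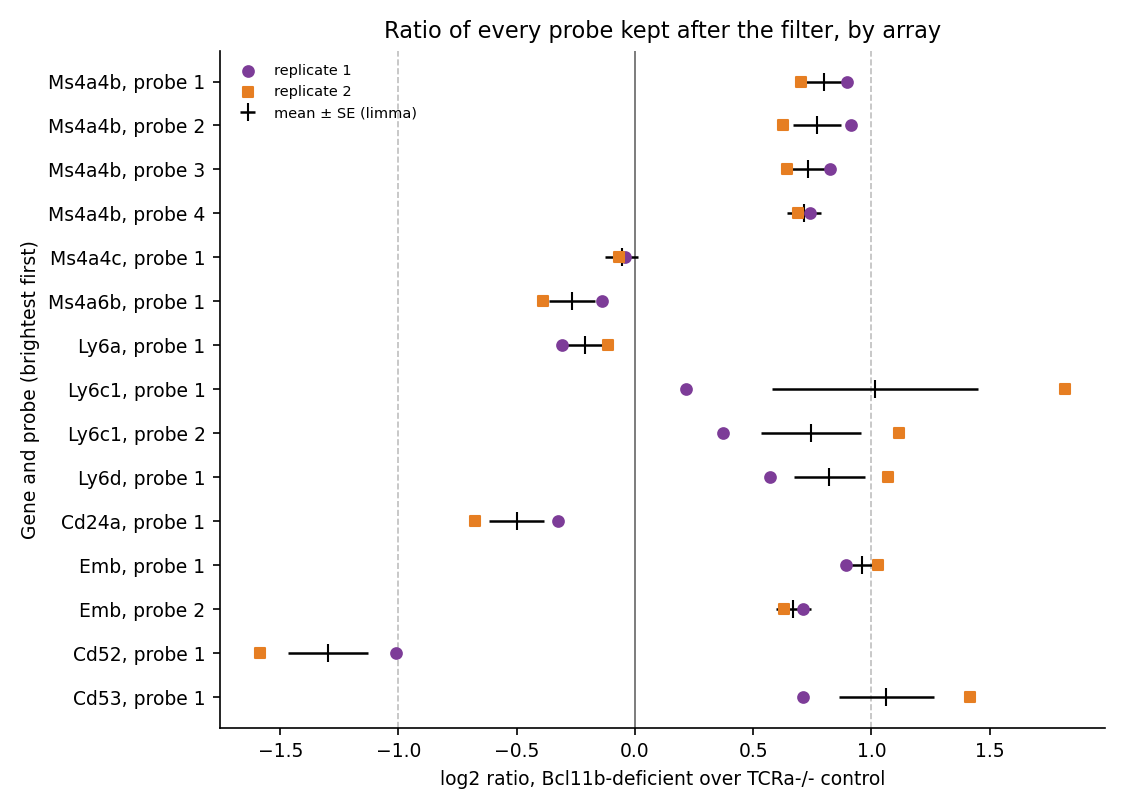
The log2 ratio (deficient over control) of each of the 15 kept probes of the 10 genes, with 1 symbol per array and limma's mean ± SE; dashed lines mark 2-fold. The 3 brighter Ms4a4b probes lie between 0.73 and 0.80 on average, and the Ly6c1 arrays lie far apart.

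The Ly6 genes lie in a cluster on chromosome 15 and encode small lipid-anchored proteins. Ly6c1 and Ly6d were higher in the deficient samples, and Ly6a was lower. Ly6c1, an antigen of many peripheral T cells and of monocytes, had the widest disagreement between arrays of the 10. At chr15:74935462-74935520 it gave 8914 and 14150 in the deficient samples, against 7677 and 4017 in the controls. Its ratios of 0.22 (replicate 1) and 1.82 (replicate 2) had a mean of 1.02 ± 0.44 and an adjusted p of 0.242 by limma. Both deficient samples were above both controls, but on replicate 1 by little. The difference between the arrays was 1.60, against a 90th percentile of 0.42 over all genes.

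A second Ly6c1 probe, at chr15:74872537-74872596, gave 1639 and 2645 in the deficient samples, against 1267 and 1218 in the controls. Its ratios of 0.37 and 1.12 were again larger on replicate 2, with a mean of 0.74 ± 0.21 (adjusted p 0.155 by limma). The probes lie at different positions. The second was assigned to Ly6c1 by its accession, and the first only through the older name Ly6c. The first, brighter probe may therefore read the paralog Ly6c2, in place of Ly6c1 or as well, which was not tested. Its values may not be those of Ly6c1. Several genes of myeloid and red cells also had a higher ratio on replicate 2 than on replicate 1. Lyz2, the lysozyme of macrophages and neutrophils, had processed signals of 25054 and 28033 in the deficient samples, against 23207 and 8756 in the controls, and ratios of 0.31 and 1.75. The 14 measured macrophage or monocyte genes summed to 41751 and 38238 in the deficient samples, against 37107 and 15562 in the controls. Lyz2 alone was the greater part of each of these sums. The median ratio of the 14 genes was 0.21 on replicate 1 and 0.32 on replicate 2, so the list did not share the array difference of Lyz2. Of these genes, 13 were well above background in the deficient samples and 12 in the controls. S100a9, a neutrophil and monocyte protein, had ratios of -2.56 on replicate 1 and 0.72 on replicate 2, and Hbb-bt, an adult beta globin, -0.35 and 2.86. Their part in the Ly6c1 ratio was not tested.

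**Figure D3:**
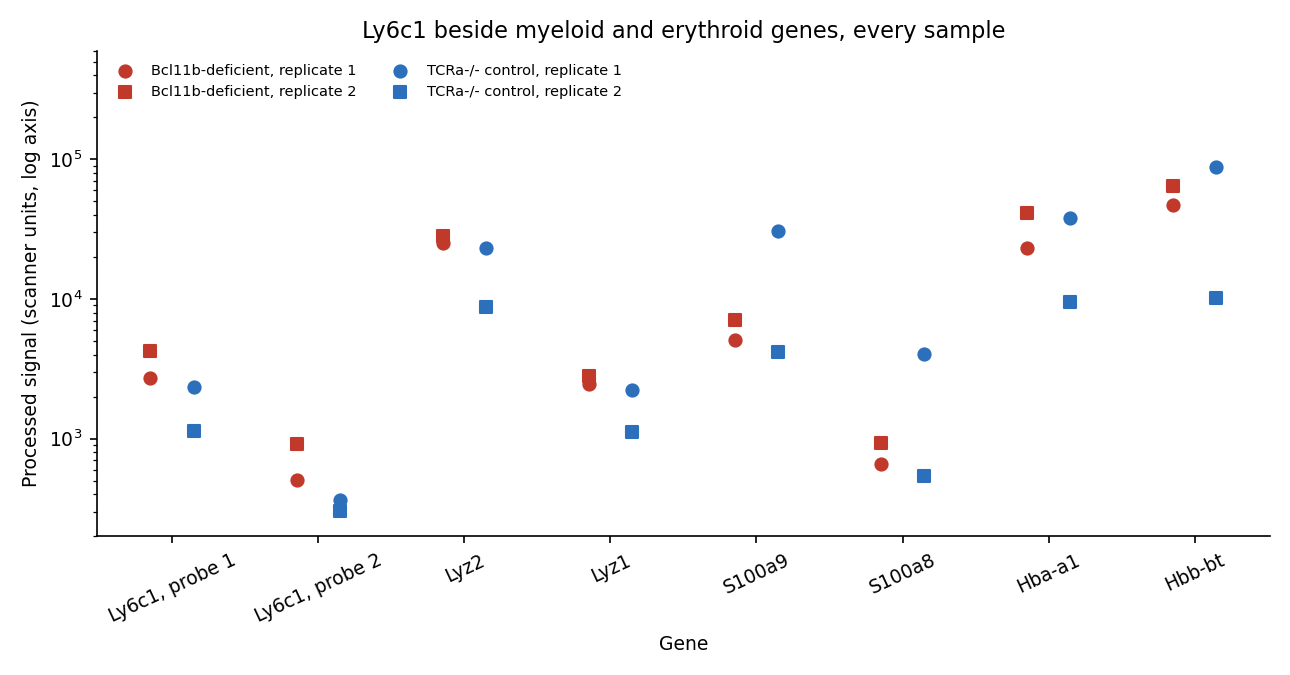
The authors' processed signal (scanner units, log axis) of the Ly6c1 probes and of myeloid, neutrophil and red cell genes, 1 point per sample, deficient left of control. For Lyz2 and Ly6c1 probe 1 the control of replicate 2 is the lowest sample, and for S100a9 the control of replicate 1 is the highest at 30576.

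Ly6d, also known as ThB, marks early lymphoid cells with B cell potential and is present on DP thymocytes. Its probe, at chr15:74589376-74589435, had a mean log2 intensity of 17.1 and gave 178968 and 205297 in the deficient samples, against 120295 and 97838 in the controls. Both deficient samples lay above both controls, with ratios of 0.57 and 1.07 and a mean of 0.82 ± 0.15 (adjusted p 0.109 by limma). Other bright probes leaned the same way. The 82 kept probes at or above 17 in mean log2 intensity had a median ratio of 1.04 on replicate 1 and 1.06 on replicate 2, and 52 of them had a larger mean ratio than Ly6d. The median of the mean ratios of these 82 probes was 1.06, above the 0.82 of Ly6d. Centring on a running median of probes ordered by intensity left Ly6d a mean ratio of 0.57. That centring took off only 0.24 on replicate 1 and 0.25 on replicate 2. Cd8a, at 16.8 in mean log2 intensity, had the same values taken off. The 0.57 is therefore not a ratio relative to probes as bright as Ly6d. On the authors' processed signals Ly6d had 0.22 and 0.75.

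Ly6a, or Sca-1, an antigen of stem cells and activated T cells, gave 780 and 648 in the deficient samples, against 965 and 703 in the controls, at chr15:74822378-74822437. The groups overlapped, since the deficient sample of replicate 1 was above the control of replicate 2. The ratios were -0.31 and -0.12, with a mean of -0.21 ± 0.09 and an adjusted p of 0.230 by limma. Without the offset the mean was -0.50 on the processed signals and -0.47 with the negative-control background. Of 37 further Ly6 and uPAR family genes listed, 14 were measured, 4 higher and 6 lower on both arrays, with a median of -0.02. Ly6k and Pinlyp had the largest mean ratios of one sign. Ly6k had -0.59 and -1.25 (mean -0.92 ± 0.19), and Pinlyp -0.58 and -0.74 (mean -0.66 ± 0.08). None of the 14 passed limma's test, and separate-channel limma called 1 of them, lower.

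CD24 and CD52 are short, heavily glycosylated peptides held in the membrane by a lipid anchor, and both transcripts were lower in the deficient samples. Cd52, which encodes an antigen of lymphocytes that is abundant on mature T cells, gave 31911 and 24614 in the deficient samples, against 64273 and 73838 in the controls, at chr4:133365666-133365725. Each deficient sample was below each control by a wide margin. The deficient signal was 49.6% of the control on replicate 1 and 33.3% on replicate 2. The ratios were -1.01 and -1.58, with a mean of -1.30 ± 0.17 and an adjusted p of 0.0977 by limma. With median centring in place of loess the mean was -0.79, and Ly6d, Emb, Ly6c1, Cd53 and Ms4a4b then had larger mean ratios in size; on the processed signals Cd53 did, at 1.60 against -1.34 for Cd52. Separate-channel limma gave an adjusted p of 0.0312.

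Cd24a gave 32324 and 28456 in the deficient samples, against 40528 and 45415 in the controls, at chr10:43272315-43272374. The deficient samples were the lower ones on both arrays, with ratios of -0.33 and -0.67 and a mean of -0.50 ± 0.12 (adjusted p 0.130 by limma). With median centring in place of loess, Cd24a had a mean ratio of -0.02 and a positive ratio of 0.05 on replicate 1. That centring moved the median of all probes to 0.12, against 0.00 with loess.

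Emb was the member with the most even pair of large ratios. Embigin is a membrane glycoprotein with immunoglobulin domains, related to basigin, and serves as a partner of monocarboxylate transporters. At chr13:118393205-118393264 it gave 33067 and 35058 in the deficient samples, against 17819 and 17175 in the controls. The deficient samples were close to each other and above both controls. The ratios were 0.89 and 1.03, with a mean of 0.96 ± 0.08 and an adjusted p of 0.0904 by limma. A second probe, within chr13:118368722-118369017, gave 11834 and 13769 in the deficient samples, against 7228 and 8903 in the controls, with a mean of 0.67 ± 0.07. The remaining Emb probe was not kept. Of the 5 related genes listed (the basigin group and its transporters), 4 were measured, and 0 were higher on both arrays while 3 were lower. Nptn (neuroplastin) had a mean of -0.28 ± 0.07, and Slc16a1, which encodes the lactate transporter MCT1, had -0.20 ± 0.08. None of these 4 passed limma's test, and separate-channel limma called 0.

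Cd53 encodes a tetraspanin of leukocytes. Its probe, within chr3:106890184-106891278, gave 1849 and 2279 in the deficient samples, against 1130 and 854 in the controls. Both deficient samples were above both controls. The ratios were 0.71 and 1.42, with a mean of 1.06 ± 0.20 and an adjusted p of 0.112 by limma. On the processed signals, without the offset, the ratios were 0.92 and 2.27.

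Other tetraspanins gave larger ratios than Cd53. Of 30 further tetraspanin genes listed, 21 were measured, with 11 higher and 5 lower on both arrays, a median of 0.17, and 3 at least 2-fold higher on both. Cd82 had ratios of 1.47 and 2.35 and a mean of 1.91 ± 0.25. Cd9 had 1.37 and 1.87, with a mean of 1.62 ± 0.15. Tspan2 had 1.01 and 1.58, with a mean of 1.30 ± 0.17. Among the tetraspanins that were lower, Tspan3 had -0.59 and -0.60, with a mean of -0.60 ± 0.07. None of the 21 passed limma's test, and separate-channel limma called 6, of which 5 were higher. Of all genes, 36.4% were higher and 38.5% lower on both arrays, 0.817% were at least 2-fold higher, and separate-channel limma called 6.53%. The list was chosen with earlier results of these data known.

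The ratios of the 10 genes were larger in size on replicate 2 for 8 of them. The like share of all genes was not computed, so this count is not a trait of the 10. On replicate 1 alone, 1 of the 10 differed at least 2-fold, against 1.63% of all genes, and on replicate 2 alone 5 did, against 3.01%. The replicates differed by more than the 90th percentile of all genes, a log2 difference of 0.42, for 4 of the 10. Over all 21547 kept probes, the ratios of the arrays had a correlation of 0.63 across probes, which are not independent replicates and share the samples, the dyes and the slide.

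**Figure D4:**
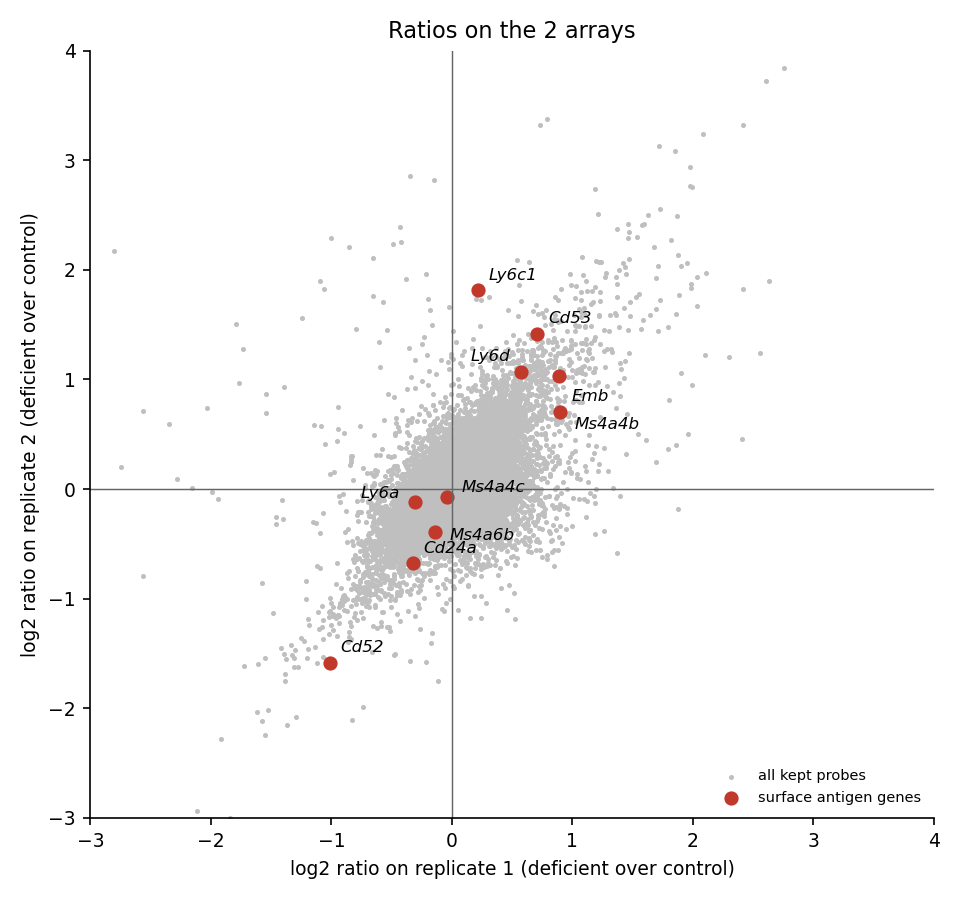
Log2 ratio (deficient over control) on replicate 1 (x) and replicate 2 (y) for all kept probes (grey) and the brightest kept probe of the 10 genes (red). Cd52 lies furthest down at -1.01 and -1.58, and Ly6c1 stands off the diagonal at 0.22 and 1.82.

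Other surface antigens tied to maturation did not share one direction. Of 25 listed as high on mature thymocytes, 22 were measured, with 7 higher and 10 lower on both arrays, a median of -0.02 and 2 at least 2-fold higher on both. Itgb7, the integrin beta 7 chain, had ratios of 2.08 and 3.24, with a mean of 2.66 ± 0.32. Il7r, the interleukin 7 receptor alpha chain, had 1.48 and 1.71, with a mean of 1.60 ± 0.09. All 18 antigens listed as high on immature thymocytes were measured, with 9 higher and 8 lower on both arrays and a median of -0.00. Cd9, given above, was the only one of these at least 2-fold higher on both arrays. Ccr9, the chemokine receptor of DP thymocytes, had ratios of -0.74 and -1.99 and a mean of -1.37 ± 0.34. Among the 14 genes of DP identity, 3 were higher and 10 lower on both arrays, with a median of -0.24. Dntt, which encodes the terminal transferase, had 1.71 and 1.45 and a mean of 1.58 ± 0.10. Its probe was among the brightest, at 17.5 in mean log2 intensity, where the 82 probes given with Ly6d also leaned higher. On the processed signals Dntt had 1.16 and 0.98. None of the genes in these lists passed limma's test. Separate-channel limma called 5 of the 22, 5 of the 18 and 4 of the 14, against 6.53% of all genes. These lists too were chosen with earlier results of these data known.

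All 10 mean ratios had the same sign under the 5 ways of processing plotted here, but those of Ms4a6b and Cd24a were near 0 with median centring, where their ratios on replicate 1 turned positive, at 0.05 each. Cd53 had a mean ratio of 1.06 with the offset and 1.60 on the processed signals. Ly6d had 0.82 with loess, 1.54 with median centring and 0.48 on the processed signals. Emb had 0.96 with loess and 1.38 with median centring, and Cd52 -1.30 and -0.79.

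**Figure D5:**
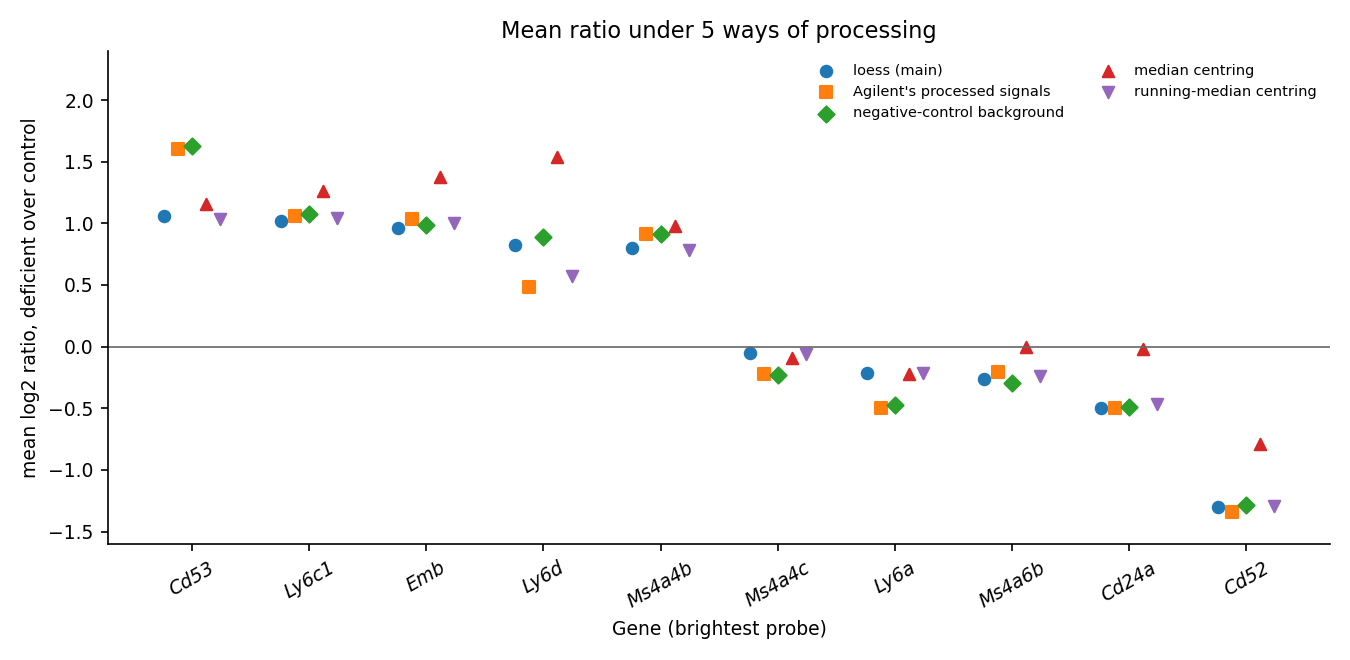
Mean log2 ratio (deficient over control) of the brightest kept probe of each of the 10 genes under 5 ways of processing, 1 symbol per setting. Ms4a6b and Cd24a reach near 0 with median centring (-0.00 and -0.02), and Ly6d ranges from 0.48 to 1.54.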

How the data were processed

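The authors scanned 2 arrays of a 2-colour mouse oligonucleotide design and read them with Agilent Feature Extraction 9.5.3.1, per the submitters' processing notes. RNA was isolated with trizol and columns, amplified linearly (Agilent) and given its dye by the Kreatech ULS method, per the labels' protocols. The deposited mean and local background signals are uncorrected intensity values, per the file headers. The authors' processed signals are intensity values corrected for background and dye by Feature Extraction. The deposited log ratio and the series value table hold the log10 of the processed Cy5 over Cy3 signal; they matched to within 0.005, with a median of 0 on each array, so scale and direction of the table are known.

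Background was corrected by normexp (offset 50) and ratios by loess, with weight 0 for controls and for the 108 and 116 flagged spots, using limma 3.58.1 (with statmod 1.5.0, under R 4.3.3). Spots of a probe were averaged. A probe was kept if well above background in one channel on both arrays, and the brightest such probe stood for its gene. The normalised signals printed are channel values after Aquantile scaling. The mean of 2 arrays was tested against 0 with lmFit and eBayes (1 residual and 2.46 prior degrees of freedom), with Benjamini-Hochberg adjustment over 21547 probes and a threshold of 0.05. The procedure was tested on simulated data. Probes took current symbols from the RefSeq gene table by accession (24490), symbol (6236) or synonym (2383), and 8065 kept the file's name. Upstream sequences were aligned with Biopython 1.88; Python was 3.11.15.

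The members and gene lists were chosen with earlier results of these data known. From each list the text names up to 4 genes that passed the test or differed at least 2-fold the same way on both arrays or, where there were none, the 2 with the largest mean ratio of one sign; Tspan3, Ccr9 and the genes of other cell types were chosen after their values were seen. Alternatives covered background, normalisation, filtering, probe choice, the value table, separate-channel limma and leaving out each array. Array and scan did not differ between the samples, since both arrays share 1 slide and scan. Probe sequences and proteins were not used here.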

Additional observations from a re-analysis of the deposited data

How the results depend on the processing

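With 2 arrays and 1 residual degree of freedom, limma called 0 of 21547 probes, and 5827 had an unadjusted p under 0.05. The count became 30 on the processed signals, 707 with the negative controls as background, 982 with median centring and 1231 in separate-channel limma. Of the 10 member genes, the negative-control background called 1 (Emb, adjusted p 0.048), median centring 3 (Emb 0.034, Ms4a4b 0.035 and Ly6d 0.044) and separate-channel limma 5, with the lowest adjusted p for Emb (0.023) and the highest for Cd53 (0.049); the processed signals, the smaller offset, the running median, the filters, the value table and the probe choices called 0. Members at least 2-fold the same way numbered 1 in the values reported (Cd52), 2 with median centring (Ly6d and Emb, without Cd52), 1 with the negative-control background (Cd53 in place of Cd52), and 1 to 5 when an array was left out (5 without replicate 1 and 1 without replicate 2, which leave 1 array and no test). Probes at least 2-fold the same way were 145 higher and 47 lower, against 375 higher and 260 lower on the processed signals. No mean ratio of a member reversed its sign under any alternative run. The cause of the differences between settings was not tested. The test reported is itself paired, on the ratio of 1 deficient to 1 control sample within each array. Probes near background and the dye orientation, the same on both arrays, limit the ratios of dim genes.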

Other observations

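A transcript that is no member by the rule, A430106F12Rik, carries a description in the array files that names embigin, and its probe at chr13:118384800-118384859 (mm8) lies between the positions of the kept Emb probes. It was well above background in the deficient samples on both arrays and in neither control sample. With each control set at its signal or, if higher, the lowest signal well above background, the deficient samples averaged 1.39-fold higher. On replicate 2 alone the difference was 1.25-fold. Its normalised signals were 742 and 708 in the deficient samples, against 453 and 565 in the controls, with ratios of 0.71 and 0.32 and a mean of 0.52 ± 0.13. This gene was chosen after its values were seen.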
